A study of Mus musculus with 12 samples.

Results

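The 10 genes described here encode enzymes that write, copy, oxidise or remove methyl marks on DNA, or that feed those reactions. They were taken as a fixed set of names, Tet1, Tet2, Tet3, Dnmt1, Dnmt3a, Dnmt3b, Uhrf1, Idh1, Idh2 and Tdg, and all 10 were found among the 31060 genes of the count table. RNA-seq counts came from lineage-negative bone marrow of C57BL/6 mice, the fraction that remains when cells bearing surface markers of mature lineages have been depleted, enriched in stem and progenitor cells. The 4 genotypes were wild type (WT, n = 3), Tet2+/- with 1 disrupted copy of Tet2 (n = 3), Ins2Akita/+ with the dominant Akita allele of an insulin gene (called Akita here, n = 2), and Tet2+/-;Ins2Akita/+ with both (the double mutant, n = 3). The Akita allele gives a misfolded insulin and high blood glucose, and by its title the study concerns high glucose and the loss of 1 Tet2 copy in myeloid neoplasms. The labels give no age, do not say which part of Tet2 is disrupted or whether it is disrupted in all cells, and do not say whether the libraries of a group came from separate mice. The tests therefore measure only the spread between these libraries, which may be technical. The labels also list a sample 4 for this last group, which is not analysed here.

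A methyl group on cytosine, mostly at CG sites, is set on new sites by DNMT3A and DNMT3B and copied to the daughter strand at each cell division by DNMT1, which UHRF1 brings to half-methylated DNA. TET1, TET2 and TET3 oxidise the methyl group step by step with 2-oxoglutarate and iron, and TDG cuts out the most oxidised forms so that plain cytosine is put back. IDH1 and IDH2 make the 2-oxoglutarate, and mutations of TET2, DNMT3A, IDH1 and IDH2 are known from clonal blood disorders and myeloid leukaemia.

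Total counts were 14814409 to 22600405 per library. The libraries numbered 3 of WT, Tet2+/- and the double mutant stood apart from the 8 others, with 3.43%, 4.46% and 9.76% of counts on mitochondrial genes against 1.36% to 1.94%. Their makeup also differed from numbers 1 and 2 of their group: the summed level of 6 neutrophil primary granule genes was 1519, 609 and 7333 CPM (counts scaled to library size with TMM factors) against 7887 to 13693 CPM in the 8 others. Markers of stem and progenitor cells, erythroid cells, neutrophils, B cells and T and NK cells were found in every library. Of the listed markers, Ahsp (erythroid) and Azu2 (primary granule) were not found among the counted genes, and no other was at 0. Genes of maturing neutrophils, B cells and T cells were thus present in this depleted fraction. In bulk RNA, fewer cells of a type and less RNA per cell cannot be told apart. Some results of the 10 genes are given both with and without the libraries numbered 3. A value given only with all libraries may also move without them. Medians of gene lists were computed with all libraries only.

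By level per kilobase of exon, the 10 genes fell into 3 tiers. Uhrf1 (65.1 ± 19.0 CPM per kb, SD, n = 11 libraries), Idh2 (51.2 ± 9.99) and Dnmt1 (39.5 ± 8.23) were highest, and their ranges over the libraries overlapped. Every library of these 3 genes lay above every library of the 7 others, the nearest values being 23.2 CPM per kb for Dnmt1 and 20.3 CPM per kb for Idh1. Idh1 (11.6 ± 4.52), Tdg (9.12 ± 1.39), Tet3 (6.22 ± 1.42), Tet2 (4.14 ± 2.66), Dnmt3b (4.10 ± 1.35) and Dnmt3a (2.53 ± 0.286) followed, each overlapping its neighbour in this order. Tet1 was lowest at 0.570 ± 0.185 CPM per kb, and its highest library, at 0.910, lay below the lowest of Dnmt3a, at 1.90. The levels use the joined length of all annotated exons of a gene, so a gene expressed from a short transcript is understated. Tet2 also varied most over the 11 libraries, with a root mean square deviation of 1.09 in log2 CPM around its own mean, followed by Idh1 at 0.63. Dnmt3a varied least, at 0.16.

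**Figure D1:**
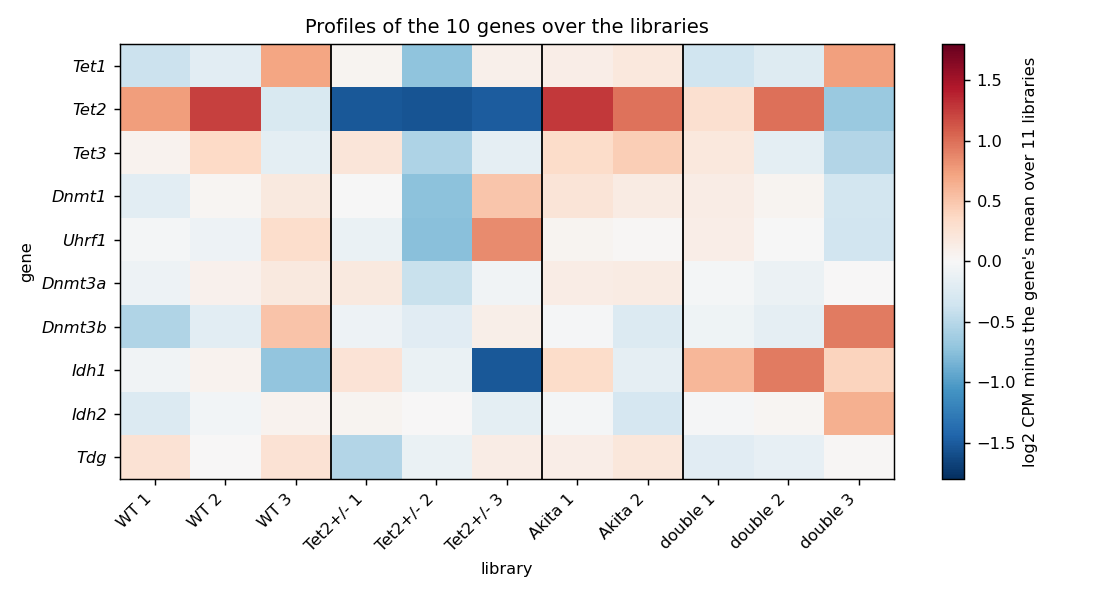
Level of the 10 genes in the 11 libraries as log2 CPM minus the gene's own mean (colour; red above, blue below), with libraries in columns and groups set off by lines. Tet2 is lowest in the 3 Tet2+/- libraries. Idh1 is highest in the 3 double mutant libraries and also above its mean in single libraries of the other groups. Dnmt1 and Uhrf1 share their lowest library (Tet2+/- 2) and their highest (Tet2+/- 3).

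Across the 6 comparisons, edgeR's quasi-likelihood test with Benjamini-Hochberg adjustment over all 15630 genes tested called none of the 10 genes at adjusted p under 0.05. The same test called 0.0256% of all genes in Tet2+/- against WT, 0% in Akita against WT and 0.0448% in the double mutant against WT. It called 0.262% in the double mutant against Tet2+/-, 0.0384% in the double mutant against Akita and 0% in the interaction, which asks whether the Tet2 difference is the same with and without Akita. Calls were thus rare among all genes, and a count of 0 of 10 lies near these rates. At an unadjusted p under 0.05, Tet2 passed in Tet2+/- against WT (2.12% of all genes did), Tet2 and Idh1 passed in the double mutant against Tet2+/- (10.9% of all genes), and no member passed in the other 4 comparisons. There, 0.429% (Akita against WT), 8.79% (double mutant against WT), 6.6% (double mutant against Akita) and 3.44% (interaction) of all genes did. By DESeq2, Tet2 alone was called, in the same 2 comparisons, and limma voom called no member. For 34 of the 60 differences the sign changed under at least 1 of 21 alternatives, and none of these was called. The 3 comparisons that involve WT share the WT libraries, and the 3 simple ones that involve the double mutant share its libraries, so the values of a gene in them are not independent.

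**Figure D2:**
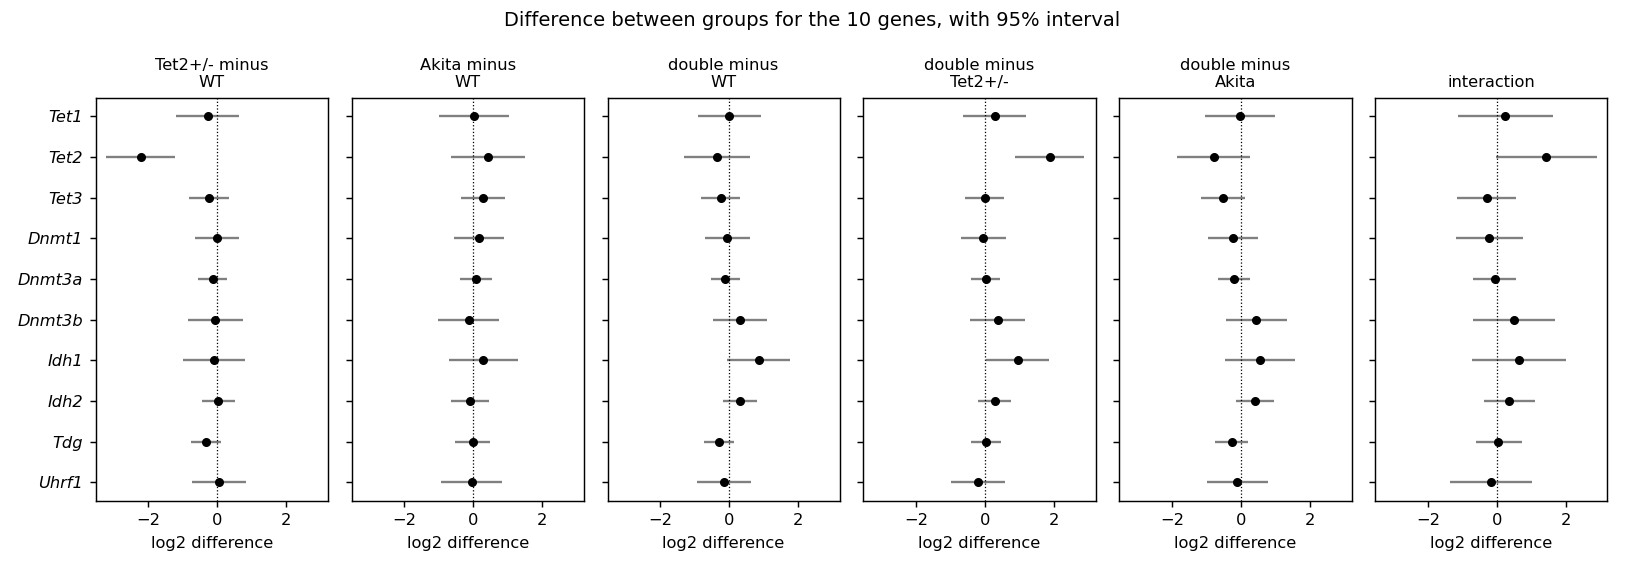
Log2 difference between groups (horizontal axis, points) with its 95% interval (lines) for the 10 genes in the 6 edgeR comparisons; "double" is the double mutant and the last panel is the interaction. Away from 0 lie Tet2 in Tet2+/- against WT (-2.22) and in the double mutant against Tet2+/- (1.88), while the interval of Idh1 in the latter reaches from 0.04 to 1.86.

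Tet2, the targeted gene (identifier ENSMUSG00000040943.12, on the minus strand of GRCm38 chromosome 3 from 133463679 to 133545139), stood at 91.2, 128 and 45.1 CPM in WT libraries 1 to 3 and at 19.0, 18.5 and 19.3 CPM in Tet2+/-. The Akita pair had 131 and 107 CPM, and the libraries labelled double mutant 66.5, 108 and 34.2 CPM. The 3 Tet2+/- libraries lay below all 8 others, a pattern that 0.493% of all genes tested showed. The double mutant libraries overlapped with WT and with Akita and did not overlap with Tet2+/-, although both groups carry the same Tet2 label. The Tet2 level thus does not separate the double mutant libraries from WT, and whether their label is right was not settled by it, which bears on every double mutant value given here. Counts of 4 processed pseudogenes went with the labels: Atp6v0c-ps2, for one, had 549 to 829 counts in the 6 libraries with a Tet2+/- label and 1 to 11 in the 5 others. These were picked with earlier results of these data known, so they are no independent check of the labels. The pseudogenes Tdg-ps and Gm9855, with 6 and 11 counts in double mutant 3, lay within the WT and Akita range there. Tet2+/- against WT gave a log2 difference of -2.22 (SE 0.45, 95% interval -3.22 to -1.21, edgeR adjusted p = 0.505), the 19th smallest p of the table. As a fold this is 0.215, with an interval of 0.107 to 0.431 that does not include 0.5, the share of 1 copy out of 2. In 3 of 21 alternatives the interval did include it, with upper bounds of 0.561 without WT 2, 0.518 without Tet2+/- 1 and 0.524 without Tet2+/- 2. Between double mutant and WT the fold was 0.789 with an interval of 0.405 to 1.53 that does include 0.5. The difference of the double mutant from Tet2+/- was 1.88 (interval 0.88 to 2.87, edgeR adjusted p = 0.140), and the interaction 1.44 (interval -0.02 to 2.91, edgeR adjusted p = 1). The double mutant also differed from Tet2+/- in cell markers, with 45092 to 69479 against 2929 to 28032 CPM in the maturing neutrophil sum and 58.6 to 80.2 against 191 to 407 CPM in the sum of 10 B lineage genes, whose part in the level of Tet2 was not tested. Akita against WT (0.43, interval -0.63 to 1.50) and the double mutant against Akita (-0.78, interval -1.84 to 0.28) were not called either. Counts are over the whole gene, so reads from a disrupted copy that is still transcribed would be included.

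The calls on Tet2 depended on the libraries numbered 3 and on the test. Within WT and the double mutant, Tet2 in number 3 lay 1.26 and 1.31 log2 units below the mean of numbers 1 and 2 (differences -1.26 and -1.31), while in Tet2+/- the difference was 0.04. In all 3 groups number 3 was also the lowest in the 6 primary granule genes and the highest in mitochondrial share. In the 11 maturing neutrophil genes it was the lowest in WT (2084 CPM) and Tet2+/- (2929 CPM) but not in the double mutant, where it had 60633 CPM against 45092 in library 1 and 69479 in library 2, and the part of these in the level of Tet2 was not tested. Without the 3 libraries numbered 3, edgeR called Tet2 lower in Tet2+/- than in WT (log2 difference -2.55, adjusted p = 0.0162, with 0.146% of genes called) and higher in the double mutant than in Tet2+/- (2.22, adjusted p = 0.00537, with 7.71% called). The interaction was then 2.1 (edgeR adjusted p = 0.0682). DESeq2 on all 11 libraries called both as well, at -2.21 (adjusted p = 0.00181, with 0.288% of genes called) and 1.90 (adjusted p = 0.00448, with 3.44% called). With the library number as a block, edgeR called the double mutant against Tet2+/- (1.70, adjusted p = 0.0286, with 4.5% called) but not Tet2+/- against WT (-2.05, adjusted p = 0.186, with 0.0512% called). Over 21 alternatives the first difference ranged from -2.55 to -1.85 (adjusted p 0.00181 to 1) and the second from 1.41 to 2.22 (adjusted p 0.00448 to 0.478).

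Tet3 (ENSMUSG00000034832.15, chromosome 6, 83362373 to 83459084, minus strand), the other abundant TET gene in this fraction, stood at 106, 130 and 90 CPM in WT and at 118, 68.7 and 90.1 CPM in Tet2+/-. Akita libraries 1 and 2 had 127 and 138 CPM and the double mutant 115, 89.7 and 70.4 CPM. The WT and Tet2+/- libraries overlapped over most of their range, and the Akita libraries lay above those of the double mutant. Such a separation of these 2 groups, in either direction, was shown by 36.6% of all genes tested. Tet2+/- against WT gave a log2 difference of -0.24 (interval -0.81 to 0.34), a fold of 0.849 with an upper bound of 1.27 in this fit. With 1 library left out the difference ranged from -0.46 to -0.06, and without WT 2 it was -0.09 (SE 0.29). The bound of 1.27 is thus not a firm limit on a rise of Tet3 beside the low Tet2. Against Akita, the double mutant gave -0.53 (interval -1.17 to 0.11, edgeR adjusted p = 0.839).

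Tet1 (ENSMUSG00000047146.15, chromosome 10, 62804570 to 62908996, minus strand), best known from embryonic stem cells, rested on 86 to 227 counts per library. It stood at 6.45, 7.42 and 13.7 CPM in WT, 8.72, 5.10 and 8.99 CPM in Tet2+/-. The Akita pair had 9.13 and 9.65 CPM and the double mutant 6.57, 7.16 and 14.1 CPM. Its 2 highest values were in the libraries numbered 3 of WT and the double mutant, those in which Tet2 was lowest within its group. Tet2+/- against WT gave -0.27 (interval -1.18 to 0.64), a fold of 0.828 with an upper bound of 1.56. This difference was 0.13 (SE 0.40) without WT 3 and 0.00 (SE 0.27) without the libraries numbered 3. The bound of 1.56 is thus not a firm limit on a rise of Tet1 beside the low Tet2. Tet1 was called in no comparison, and its groups overlapped in each.

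Per kilobase, the 3 TET genes summed to 12.3 ± 3.45 CPM per kb in WT (SD, n = 3), 7.14 ± 1.60 in Tet2+/- (n = 3), 15.6 ± 0.563 in Akita (n = 2) and 10.2 ± 2.69 in the double mutant (n = 3). Tet2 made up 44.4%, 47.9% and 29.9% of this sum in WT, 12.8%, 19.8% and 16.1% in Tet2+/-, 48.7% and 41.6% in Akita, and 35.0%, 52.3% and 28.3% in the double mutant. Tet3 made up 76.9 ± 3.38% of the sum in Tet2+/- and 53.8 ± 5.74% in WT, and Tet1 at most 12.7% in any library. The smaller sum and the larger Tet3 share in Tet2+/- thus came with a Tet3 level that overlapped WT. The summed values were not tested.

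**Figure D3:**
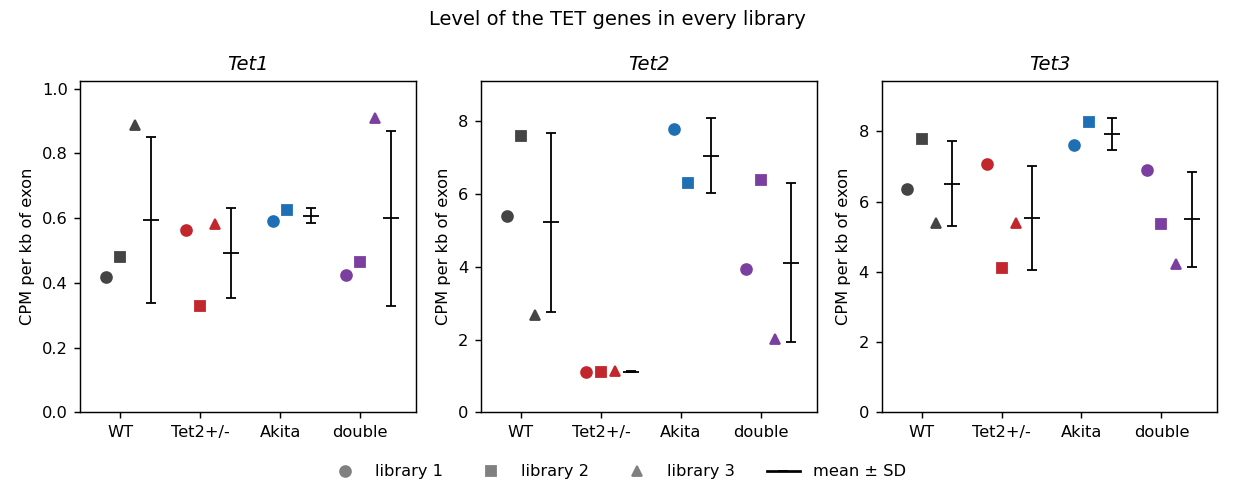
Level of Tet1, Tet2 and Tet3 in CPM per kb of exon (vertical axis, each panel with its own scale from 0) in each library, by genotype ("double" is the double mutant); marker shapes give the library number, and the bar beside each group is the mean ± SD. The 3 Tet2+/- values of Tet2, 1.10 to 1.15 CPM per kb, lie below all others, while for Tet1 and Tet3 library 2 of Tet2+/- is the lowest of the 11 and libraries 1 and 3 lie among the others.

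By the size of the root mean square difference between log2 profiles over 11 libraries, each centred on its own mean, the 5 genes most like Tet2 among 10528 genes with a mean of at least 5 CPM were Slc7a14 (0.52), Dnmbp (0.59), Zfp382 (0.59), B4galt4 (0.62) and Lhfpl2 (0.63). Slc7a14, a transporter-like gene of the cationic amino acid family, had means of 11.1 CPM in WT, 3.71 in Tet2+/-, 11.5 in Akita and 10.8 in the double mutant, with single Tet2+/- libraries at 2.42, 4.81 and 3.91 CPM. Dnmbp, which encodes a scaffold and exchange factor for CDC42, had means of 20.8, 9.99, 27.1 and 22.7 CPM in the same order. Zfp382 had means of 7.62, 3.76, 10.3 and 7.75 CPM, and B4galt4, a galactosyltransferase, 10.3, 4.36, 9.75 and 8.30 CPM. Lhfpl2 had means of 50.7, 25.8, 69.3 and 57.8 CPM. All 5 had their lowest group mean in Tet2+/-, which the choice by likeness to Tet2 itself favours, and this is a description with no test.

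Dnmt1 (ENSMUSG00000004099.15, chromosome 9, 20907209 to 20959888, minus strand), the maintenance methyltransferase, and Uhrf1 (ENSMUSG00000001228.14, chromosome 17, 56303321 to 56323486, plus strand), its partner at replication forks, had the most alike profiles of the 45 pairs of members, with a root mean square difference of 0.15 in log2 CPM over 11 libraries. Both are known to be made in dividing cells, and E2F factors act on many such genes. A search of the RefSeq GRCm38.p6 promoter windows, 250 bases before to 50 after each start, was made on both strands for 4 words of the E2F type, TTTCCCGC, TTTCGCGC, TTTGCCGC and TTTGGCGC. Of 32851 windows, 2.26% held at least 1 of these words. Of the 16 windows that matched the 10 genes, 1 window of Dnmt1 and 1 window of Uhrf1 held them and the other 14 did not. The sites are shown because they are a feature this most alike pair has in common; capitals mark the word, no sites overlapped, and each line is 5′ to 3′ on the strand of the gene.
Dnmt1, chr9:20952824-20952853, minus strand, word on the opposite strand starting 219 bases before the start site: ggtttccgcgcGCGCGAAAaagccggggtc
Dnmt1, chr9:20952574-20952601, minus strand, word at base 34 after the start site: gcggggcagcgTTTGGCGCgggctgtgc
Uhrf1, chr17:56304117-56304146, plus strand, word starting 185 bases before the start site: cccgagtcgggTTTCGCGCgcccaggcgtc
A match of letters is a description and not a bound site. The 16 member windows had a median of 23 CG dinucleotides per 300 bases against 7 over all windows, and the single Tet2 window had the most of them, 57. All the words searched hold a CG, so the 2.26% over all windows is not the share among windows as rich in CG.

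Dnmt1 stood at 250, 292 and 321 CPM in WT, 285, 171 and 404 CPM in Tet2+/-. Akita libraries 1 and 2 had 334 and 315 CPM and the double mutant 312, 296 and 226 CPM. Uhrf1 stood at 260, 251 and 335 CPM in WT, 246, 159 and 481 CPM in Tet2+/-. The Akita pair had 278 and 272 CPM and the double mutant 291, 267 and 210 CPM. Both genes had their lowest and their highest value within the Tet2+/- group, in libraries 2 and 3, and all groups overlapped for Uhrf1. The summed level of 19 proliferation genes, all 19 found and none at 0, was 3775 CPM in Tet2+/- library 2 and 8718 CPM in library 3, its lowest and highest value too. It was 4252, 4329 and 6345 CPM in WT, 4447 in Tet2+/- library 1, 4660 and 4780 in Akita, and 4508, 4538 and 3906 in the double mutant. The part of proliferating cells in the level of Dnmt1 and Uhrf1 was not tested. Tet2+/- against WT gave -0.01 (interval -0.65 to 0.64) for Dnmt1 and 0.07 (interval -0.72 to 0.85) for Uhrf1. For the double mutant against WT they were -0.05 (interval -0.70 to 0.60) and -0.14 (interval -0.93 to 0.65). As folds, the intervals between Tet2+/- and WT reached from 0.635 to 1.56 for Dnmt1 and from 0.607 to 1.81 for Uhrf1. Without the libraries numbered 3 this log2 difference was -0.25 for Dnmt1 and -0.33 for Uhrf1. Of the Uhrf1 sequence, 15.4% of its 50-base stretches also occur in another gene, chiefly the processed pseudogene Gm5648, which had at most 2 counts in any library.

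Dnmt3a (ENSMUSG00000020661.15, chromosome 12, 3806007 to 3914443, plus strand), the de novo methyltransferase of adult blood stem cells, was the steadiest of the 10 genes. It stood at 39.2, 44.1 and 47.5 CPM in WT, 47.3, 31.7 and 40.2 CPM in Tet2+/-. Akita libraries 1 and 2 had 45.8 and 46.4 CPM and the double mutant 40.7, 38.8 and 42.1 CPM. WT, Tet2+/- and Akita overlapped, and the 2 Akita libraries lay above the 3 of the double mutant. Separation of the latter 2 groups, in either direction, was shown by 36.6% of all genes tested. Tet2+/- against WT gave -0.13 (interval -0.55 to 0.28) and the double mutant against WT -0.11 (interval -0.52 to 0.31), the narrowest intervals of the set in both comparisons. The antisense gene Dnmt3aos overlaps Dnmt3a, and reads of the pair cannot be told apart where counting ignores strand, which is not given in the sources used here.

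Dnmt3b (ENSMUSG00000027478.15, chromosome 2, 153649450 to 153687730, plus strand), the de novo methyltransferase best known from early embryos, stood at 13.8, 17.6 and 28.7 CPM in WT and 19.0, 17.4 and 21.7 CPM in Tet2+/-. The Akita pair had 19.8 and 16.9 CPM and the double mutant 19.1, 17.9 and 38.3 CPM. As for Tet1, the highest values were in library 3 of the double mutant and of WT, and without these libraries all values were between 13.8 and 21.7 CPM. Number 3 lay above the mean of numbers 1 and 2 by 0.88 log2 units in WT, 0.26 in Tet2+/- and 1.05 in the double mutant. Double mutant against WT gave 0.33 (interval -0.46 to 1.12) with all libraries and 0.24 (edgeR adjusted p = 0.513) without the libraries numbered 3. Of the Dnmt3b sequence, 9.81% of the 50-base stretches occur in its neighbour Dnmt3c, which had 0 to 81 counts per library, and adding those counts moved the Dnmt3b difference of the double mutant from Tet2+/- from 0.38 to 0.31.

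Per kilobase, Dnmt1 made up 85.8 ± 1.83% of the summed Dnmt1, Dnmt3a and Dnmt3b level in WT (SD, n = 3), 85.3 ± 3.89% in Tet2+/-, 87.4 ± 0.175% in Akita (n = 2) and 83.3 ± 6.88% in the double mutant. The sum was 45.6 ± 6.49, 45 ± 16.5, 50.4 ± 2.24 and 45.1 ± 3.97 CPM per kb in the same order. The Akita sums, 48.8 and 52 CPM per kb, lay above the 3 of the double mutant, at 40.7 to 48.5, and the other pairs of groups overlapped. The nearest values, 48.5 and 48.8, were close. Of all single genes tested, 36.6% separated Akita from the double mutant in either direction. The sums were not tested.

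Idh1 (ENSMUSG00000025950.16, chromosome 1, 65158616 to 65186500, minus strand), the cytosolic isocitrate dehydrogenase that also makes NADPH, stood at 28.2, 30.9 and 18.1 CPM in WT and 34.8, 27.2 and 10.3 CPM in Tet2+/-. Akita libraries 1 and 2 had 37.1 and 26.3 CPM and the double mutant 44.8, 56.2 and 38.9 CPM. All 3 double mutant libraries lay above the 8 others, a pattern that 5.04% of all genes tested showed. Against WT the double mutant gave a log2 difference of 0.86 (SE 0.41, interval -0.05 to 1.77, edgeR adjusted p = 0.610), against Tet2+/- 0.95 (interval 0.04 to 1.86, edgeR adjusted p = 0.439) and against Akita 0.56 (interval -0.47 to 1.58, edgeR adjusted p = 0.940). Without the libraries numbered 3 these were 0.77, 0.70 and 0.67 (edgeR adjusted p = 0.0825, 0.0807 and 0.119). Within library numbers 1, 2 and 3, the double mutant was at 159%, 182% and 215% of WT and at 129%, 206% and 378% of Tet2+/-. Numbers 1 and 2 were not shown to mark pairs between groups. With the library number as a block, the difference from Tet2+/- was 1.09 (edgeR adjusted p = 0.0549), and over 21 alternatives no difference of Idh1 was called. The summed level of 11 maturing neutrophil genes, all 11 found and none at 0, was 45092 to 69479 CPM in the double mutant and 2084 to 30087 CPM in the 8 other libraries, so it separates the same libraries. Library 3 of WT and of Tet2+/-, the lowest in Idh1, were also the lowest in that sum, at 2084 and 2929 CPM. The part of maturing neutrophils in the level of Idh1 was not tested.

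Idh2 (ENSMUSG00000030541.16, chromosome 7, 80094846 to 80115392, minus strand), the mitochondrial isocitrate dehydrogenase, stood at 111, 126 and 136 CPM in WT and 135, 132 and 116 CPM in Tet2+/-. The Akita pair had 128 and 106 CPM and the double mutant 129, 134 and 204 CPM. One library, double mutant 3, lay above the rest, and it also had the highest mitochondrial share of counts, 9.76%, whose part in this value was not tested. Its difference from WT in the double mutant was 0.32 (interval -0.16 to 0.81) and, without the libraries numbered 3, 0.15. Per kilobase, Idh2 made up 71.9% to 92.3% of the summed Idh1 and Idh2 level in every library, so it was the more abundant of the pair throughout. Idh1 and Idh2 had no 50-base stretch in common with another gene.

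**Figure D4:**
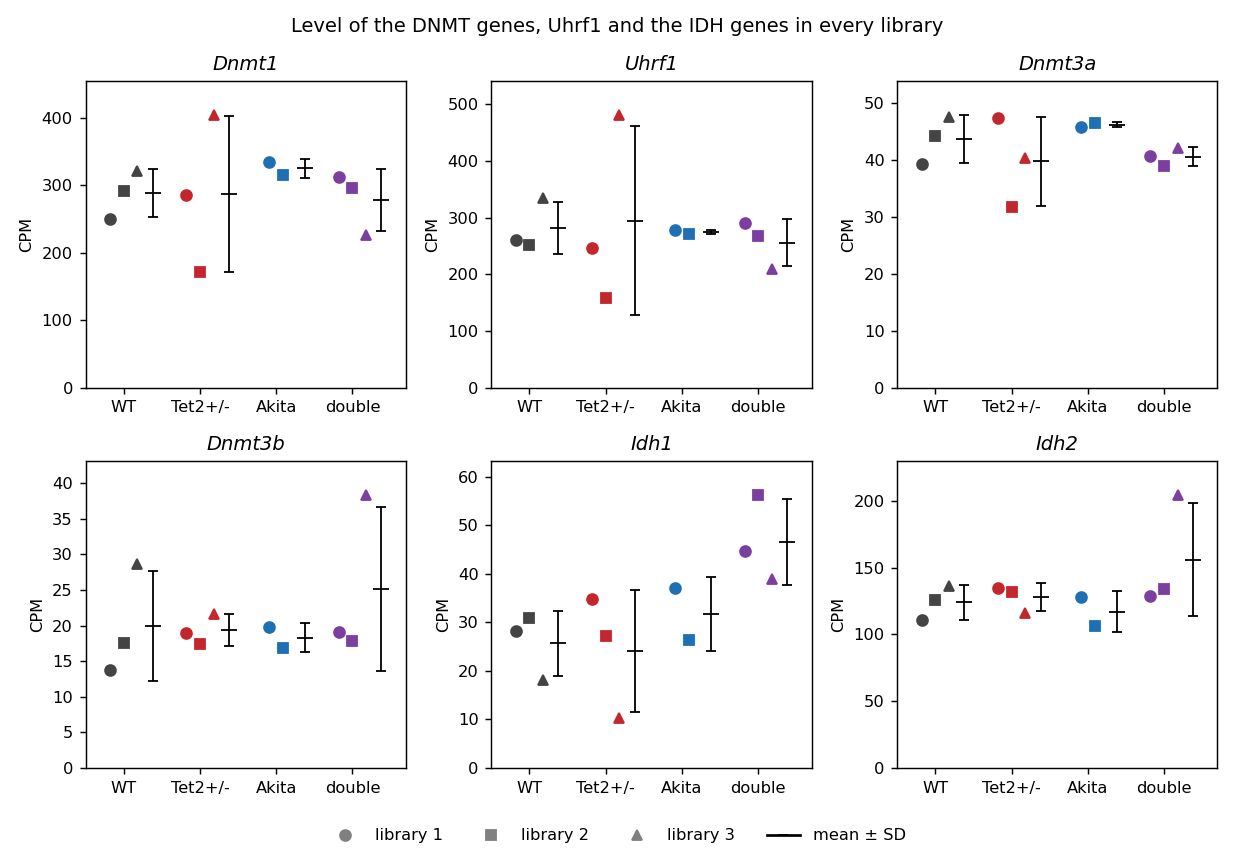
Level of Dnmt1, Uhrf1, Dnmt3a, Dnmt3b, Idh1 and Idh2 in CPM (vertical axis, each panel with its own scale from 0) in each library, by genotype ("double" is the double mutant); marker shapes give the library number, and the bar beside each group is the mean ± SD. The 3 double mutant values of Idh1, 38.9 to 56.2 CPM, lie above all others, while Dnmt1 and Uhrf1 spread most within Tet2+/-.

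By library overlap alone, the double mutant differed from Akita in 6 of the 10 genes, with Tet3, Dnmt1, Dnmt3a and Tdg lower and Idh1 and Idh2 higher in every library. With 2 libraries against 3 such separation was common, and 36.6% of all genes tested showed it. The corresponding count was 1 of 10 in Tet2+/- against WT (Tet2, with 4.24% of all genes), 0 in Akita against WT (11.6%), 1 in the double mutant against WT (Idh1, with 18.1%) and 2 in the double mutant against Tet2+/- (Tet2 and Idh1, with 15.2%). Among the 10 genes the largest difference between Akita and WT was that of Tet2, 0.43.

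Tdg (ENSMUSG00000034674.18, chromosome 10, 82629828 to 82650799, plus strand), the glycosylase that removes the end products of TET oxidation, has several processed pseudogenes, copies of its spliced RNA inserted elsewhere. Of its 50-base stretches, 41.2% occur in at least 1 of 5 other genes. Tdg-ps (chromosome 15, 82516311 to 82519278) matched all 1263 coding bases of Tdg with 17 differences (98.65% identity). Gm9855 (chromosome 10, 42054113 to 42055306, minus strand) matched 1191 of them with 9 differences (99.24%). Below is a stretch of Tdg coding exon 10, coding bases 1124 to 1213, in which the copies differ from Tdg and from each other. It was picked because no stretch of its length within an exon held more differing positions, and further differences lie elsewhere. Within the matching coding bases, reads can be told apart only by such letters. Capitals mark the 5 positions at which any of the 3 sequences differ, Tdg-ps differing from Tdg at 3 of them and Gm9855 at 4, and all are 5′ to 3′ on the strand of the gene, in GRCm38.
Tdg, chr10:82648578-82648667, plus strand: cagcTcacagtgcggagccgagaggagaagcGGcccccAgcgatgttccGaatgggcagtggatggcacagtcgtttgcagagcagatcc
Tdg-ps, chr15:82517535-82517624, plus strand: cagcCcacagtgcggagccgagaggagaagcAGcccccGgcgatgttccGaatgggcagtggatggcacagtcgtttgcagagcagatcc
Gm9855, chr10:42054166-42054255, minus strand: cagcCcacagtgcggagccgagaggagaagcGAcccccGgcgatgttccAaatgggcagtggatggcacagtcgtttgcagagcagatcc

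Tdg itself stood at 57.9, 48.6 and 57.8 CPM in WT, 33.6, 44.6 and 52.9 CPM in Tet2+/-. Akita libraries 1 and 2 had 52.7 and 55.8 CPM and the double mutant 42.0, 43.9 and 49.1 CPM. Its lowest library was Tet2+/- 1, and Tet2+/- overlapped with WT. The copies split the libraries more sharply. Tdg-ps was counted 4, 7 and 7 times in WT and 2 and 6 times in the Akita pair, against 200, 85 and 139 counts in Tet2+/- and 77, 107 and 6 counts in the double mutant. Gm9855 was counted 13, 4 and 5 times in WT and 4 and 14 times in the Akita pair, against 251, 71 and 178 counts in Tet2+/- and 113, 119 and 11 counts in the double mutant. Both copies were thus high in 5 of the 6 libraries with a Tet2+/- label and low in the sixth, double mutant 3. Another copy, Gm5597, had 0 counts in every library.

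The copies took 17.2% to 38.8% of the reads on Tdg and its copies in Tet2+/-, 18.5%, 20.4% and 2.15% in the double mutant, 1.11% to 1.46% in WT and 0.683% and 1.69% in Akita. Tdg alone was at 54.8 ± 5.34 CPM in WT and 43.7 ± 9.66 CPM in Tet2+/- (SD, n = 3 each), while Tdg with the copies was at 55.5 ± 5.48 and 59.0 ± 7.97 CPM. The log2 difference between Tet2+/- and WT was -0.32 (interval -0.77 to 0.12) for Tdg as counted and 0.09 (interval -0.29 to 0.47) once the reads of the copies were added, an alternative chosen after their counts were seen. In the double mutant against WT it was -0.28 (interval -0.72 to 0.16) and -0.09 (interval -0.46 to 0.29). The direction of the Tdg difference in Tet2+/- thus depended on where reads of near-identical sequence were counted, and it was not called either way.

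The copies were named after their values were seen. For Tdg-ps, Tet2+/- against WT gave a log2 difference of 4.43 (interval 2.56 to 6.31, edgeR adjusted p = 0.460), and for Gm9855 4.39 (interval 2.46 to 6.32, edgeR adjusted p = 0.505). DESeq2 called both (adjusted p = 2.82e-05 and 3.78e-05), and edgeR called Tdg-ps without double mutant 3 (4.43, adjusted p = 0.0175), where Gm9855 had adjusted p = 0.110. The processed pseudogenes named beside Tet2, picked with earlier results known, were not low in double mutant 3. Pcna-ps2 had 819 counts in that library against 5 to 7 in WT and Akita, and Atp6v0c-ps2 655 against 1 to 11. What sets the counts of these copies was not tested.

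**Figure D5:**
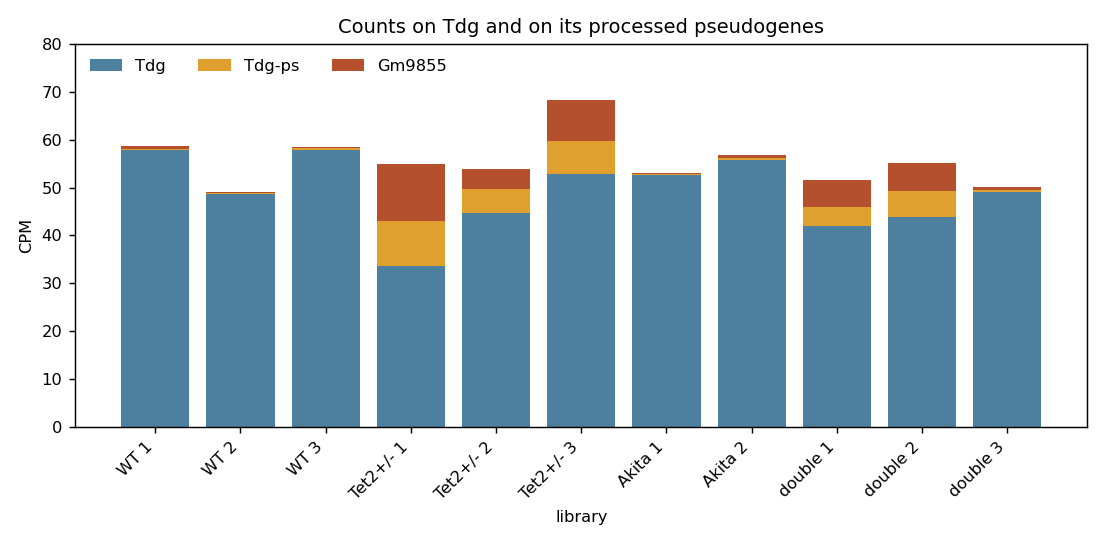
CPM on Tdg and on its processed pseudogenes Tdg-ps and Gm9855, stacked, in each of the 11 libraries ("double" is the double mutant). The copies are visible in the 3 Tet2+/- libraries and in double mutant 1 and 2, with 9.26 to 21.4 CPM, and are near 1 CPM or below elsewhere.

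Beyond the 10 genes, 6 lists of 118 genes around the same reactions were read. Of all 6 lists and 6 comparisons, only partners and regulators of TET proteins held called genes, 1 lower and 1 higher among 16 tested in the double mutant against Tet2+/-, where 0.262% of all genes tested were called, 28 lower and 13 higher. Ebf1, a B cell transcription factor that can bring TET2 to DNA, stood at 21.8, 26.1 and 11.6 CPM in Tet2+/- and 2.56, 1.09 and 1.97 CPM in the double mutant (log2 difference -3.40, interval -4.36 to -2.44, edgeR adjusted p = 0.0322). WT had 14.9, 14.5 and 8.89 CPM of it and the Akita pair 12.3 and 14.7 CPM, so the double mutant lay below every other library. The share of all genes with that pattern was not counted. The summed level of 10 B lineage genes, of which Ebf1 is one, was 58.6 to 80.2 CPM in the double mutant and 160 to 407 CPM in the 8 others, with 10 of 10 found and none at 0. Nfkbiz, which encodes an inhibitor-like NF-kB cofactor known to bring TET2 to inflammatory genes, stood at 281, 227 and 209 CPM in Tet2+/- and 499, 654 and 542 CPM in the double mutant (1.24, interval 0.82 to 1.66, edgeR adjusted p = 0.0384). The WT and Akita libraries were at 245 to 265 CPM. The part of the makeup of the fraction in both genes was not tested. Leaving out single libraries kept the call of Ebf1 in 2 of 11 cases (without WT 3 or Tet2+/- 3) and that of Nfkbiz in 1 of 11 (without WT 3), while over 21 alternatives the differences lay between -3.71 and -3.13 and between 1.12 and 1.39.

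The list of removal of oxidised methylcytosine and base excision repair, with 18 of 20 genes tested, had no called gene. Its smallest p-values were those of Gadd45g, a stress-induced gene linked to demethylation, in the double mutant against WT (1.20, interval 0.45 to 1.95) and against Akita (1.31, interval 0.45 to 2.17). Neil1, a glycosylase that can act after TDG, had them in the double mutant against Tet2+/- (-1.20, interval -1.98 to -0.43) and in the interaction (-1.22). Nthl1, another glycosylase, had it in Tet2+/- against WT (0.55) and Apex1, the abasic site endonuclease, in Akita against WT (-0.31). Gadd45g stood at 42.4, 56.6 and 117 CPM in the double mutant and 27.2 to 43.4 CPM elsewhere, so double mutant 1 lay inside the range of the others. The median log2 difference of this list in Tet2+/- against WT was 0.16, with 14 of 18 genes above 0, beside 0.03 over all genes tested (55.2% above 0). In the double mutant against Tet2+/- it was -0.19, with 6 of 18 above 0, beside -0.08 over all genes (43.6% above 0). It was -0.10 in Akita against WT, -0.02 in the double mutant against WT, 0.10 against Akita and -0.10 in the interaction.

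Among 19 cofactors and readers of DNA methylation, Uhrf2, a relative of Uhrf1, stood at 84.1, 78.0 and 69.2 CPM in the double mutant and at 89.0 to 111 CPM in all other libraries, a pattern whose share of all genes was not counted. Its difference was -0.42 against WT (interval -0.80 to -0.04, edgeR adjusted p = 0.478) and -0.43 against Akita (interval -0.85 to -0.02). Zbtb38 (-0.45, Tet2+/- against WT), Zbtb33 (0.33, Akita against WT) and Usp7 (-0.45, interaction), a deubiquitinase that acts on DNMT1 and UHRF1, had the smallest p-values elsewhere. Dnmt3l, the inactive partner of DNMT3A and DNMT3B, had it in the double mutant against Tet2+/- (2.37, interval -0.07 to 4.82), at no more than 2.28 CPM in any library.

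The 17 genes of methyl donor supply and the folate cycle had medians of 0.13 in Tet2+/- against WT (16 of 17 above 0) and -0.31 in Akita against WT (2 of 17 above 0), beside 0.03 and -0.01 over all genes tested. The median was -0.40 in the double mutant against Tet2+/- (2 of 17 above 0) and -0.18 in the double mutant against WT (3 of 17 above 0), beside -0.08 and -0.05 over all genes. It was 0.08 in the double mutant against Akita and -0.05 in the interaction. None was called. The smallest p-values were those of Mthfd1l (0.50, Tet2+/- against WT), Mthfd1 (-1.21, Akita against WT), Ahcyl2 (-0.82 in the double mutant against WT and -0.86 against Tet2+/-) and Shmt1 (0.48 in the double mutant against Akita and 0.58 in the interaction). Ahcyl2 was at 45.6 and 48.4 CPM in library 3 of WT and Tet2+/- and at 16.4 to 26.1 CPM in all others, so in both comparisons number 3 adds to the difference. Mthfd1 was at 76, 67 and 405 CPM in WT and at 62.4 and 94.9 CPM in Akita, which has no library numbered 3. Its lower level in Akita thus rests on WT 3. The medians of this list were not computed without the libraries numbered 3.

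The 23 genes of 2-oxoglutarate, succinate, fumarate and 2-hydroxyglutarate metabolism, which surround IDH1 and IDH2 in the citric acid cycle, had medians of 0.14 in Tet2+/- against WT, -0.25 in Akita against WT and 0.20 in the double mutant against Akita, beside 0.03, -0.01 and 0.01 over all genes. The median was -0.04 in the double mutant against WT and -0.19 against Tet2+/-, beside -0.05 and -0.08 over all genes. It was -0.0 in the interaction. None of the 23 genes was called. Sdhb (0.34), Fh1 (-0.53), Phgdh (0.26) and Idh3b (-0.41) had the smallest p-values in Tet2+/- against WT, Akita against WT, and the double mutant against WT and Tet2+/-. Fh1 was at 53.5, 55.4 and 116 CPM in WT and at 54.6 and 49.5 CPM in Akita, so WT 3 adds to its difference. The medians of this list were not computed without the libraries numbered 3.

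Among 21 other dioxygenases that use 2-oxoglutarate, Kdm2b, a histone demethylase that binds unmethylated CG sites, stood at 93.7, 76.0 and 47.6 CPM in the double mutant and at 95.2 to 152 CPM in all other libraries. The nearest values, 93.7 and 95.2 CPM, were close, and the share of all genes with this pattern was not counted. Its difference was -0.86 against WT (interval -1.49 to -0.23, edgeR adjusted p = 0.353), -0.75 against Tet2+/- and -0.96 against Akita, with -0.85 in the interaction. Kdm5b had the smallest p in Tet2+/- against WT (-0.35) and in Akita against WT (0.27). In the TET partner list, Ebf1 had the smallest p in Tet2+/- against WT (0.64), the double mutant against WT (-2.76) and Akita (-2.85) and the interaction (-3.48), and Sin3a, a corepressor scaffold, in Akita against WT (0.35), none of them called.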

How the data were processed

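The authors deposited 1 table of raw counts of reads per gene (whole numbers, for 31060 versioned gene identifiers). Per the submitters' processing notes it was made with bcl2fastq, Trimmomatic 0.32, TopHat2 2.1.1 and build GRCm38. Which program and annotation counted the reads, and whether strand was used, is not given in the sources used here. Of 12 labelled samples, 11 had a matching column, and 1 column that matched no sample was not used. GENCODE M21 named 30875 identifiers without their version. The quasi-likelihood test of edgeR 4.0.16 (R 4.3.3) was run on the 15630 genes kept by filterByExpr, all 10 members among them. It used TMM factors, a robust glmQLFit over the 4 groups together, and Benjamini-Hochberg adjustment over all genes tested, with calls at adjusted p under 0.05. The SE is the log2 difference over the square root of F, and intervals are 95%. Stretches of 50 bases shared between genes came from the GENCODE transcripts.

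Other fits used RLE or upper quartile scaling, DESeq2 1.42.0, limma 3.58.1 with voom, no filter on low counts, a minimum mean of 5 CPM, a block for the replicate number, a fit of both compared groups only, each library left out in turn, and all libraries numbered 3 left out. Adding reads of close copies was chosen after seeing the data. The members, lists and tests were chosen with earlier results of these data known. Named genes were all members, the 5 most like Tet2, and from each list the called genes, or else the one with the smallest p. One list gene that this rule names is not reported here. The fit was tested on simulated counts. Replicates differed by more than counting noise (lowest chi-square per gene 15.6). Deviations of same-numbered libraries correlated at 0.356 to 0.832 among WT, Tet2+/- and the double mutant. This was over the 0.1 set for treating the numbers as pairing. With Akita the correlations were -0.414 to 0.323. Libraries 1 and 2 of different number correlated at 0.227 to 0.759 among WT, Tet2+/- and the double mutant. WT 1, for one, was at 0.559 with Tet2+/- 1 and at 0.582 with Tet2+/- 2. Passing 0.1 thus cannot show that numbers 1 and 2 mark pairs, and the labels do not say what a number marks.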

Additional observations from a re-analysis of the deposited data

How the results depend on the processing

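Over 21 alternatives, 1250 values of the 60 member differences were computed, 20 alternatives for the interaction, which a fit of both groups alone cannot give. Of these, 1152 kept their direction and their side of the threshold, 5 crossed it, all for Tet2, and 93 changed sign, none of them called (lowest adjusted p 0.183). With DESeq2 the count of members called went from 0 to 1 for Tet2 in Tet2+/- against WT (-2.21, adjusted p = 0.00181) and in the double mutant against Tet2+/- (1.90, adjusted p = 0.00448). Leaving out the libraries numbered 3, which leaves 8 libraries, gave 1 in the former (-2.55, adjusted p = 0.0162) and 1 in the latter (2.22, adjusted p = 0.00537), and the replicate block gave 1 in the latter (1.70, adjusted p = 0.0286). The block treats the library numbers as pairing, which was not shown for numbers 1 and 2. It changed no other call of a member. The causes were not tested. Leaving out single libraries gave 0 called members each time, with Tet2 at -2.54 to -1.85 and 1.41 to 2.21. Outside Tet2 the lowest adjusted p was 0.0549, for Idh1. Counts of all genes called varied by over 1.5 times: in Tet2+/- against WT from 4 to between 1 and 45, in the double mutant against WT from 7 to between 1 and 519, against Tet2+/- from 41 to between 0 and 1163, against Akita from 6 to between 0 and 436, and in the interaction from 0 to at most 60. Depth limits Tet1 most, at 86 to 227 counts per library.

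The sign changes were these, in log2 differences. RLE factors gave Tet3 at 0.01 in the double mutant against Tet2+/- and Tet1 at 0.01 in the double mutant against Akita. Upper quartile factors gave Tet1 at -0.02 in Akita against WT and Tet1 at 0.03 in the double mutant against Akita. DESeq2 gave Tet3 at 0.01 in the double mutant against Tet2+/- and Tet1 at 0.01 in the double mutant against Akita. limma voom gave Dnmt3b at 0.03 and Uhrf1 at -0.07 in Tet2+/- against WT and Dnmt1 at 0.03 in the double mutant against Tet2+/-. The filter on 5 CPM gave Tet3 at 0.05 and Dnmt1 at 0.03 in the double mutant against Tet2+/- and Tet1 at 0.09 in the double mutant against Akita. It also gave Dnmt3a at 0.05 in the interaction. The replicate block gave Dnmt3b at 0.02 and Uhrf1 at -0.01 in Tet2+/- against WT and Dnmt3b at 0.18, Tdg at 0.07 and Uhrf1 at 0.13 in Akita against WT. It also gave Dnmt1 at 0.01 in the double mutant against Tet2+/- and Tet1 at -0.16 and Tdg at -0.01 in the interaction. Leaving out the libraries numbered 3 gave Dnmt3b at 0.21, Idh1 at 0.07 and Uhrf1 at -0.33 in Tet2+/- against WT and Dnmt3b at 0.22, Tdg at 0.03 and Uhrf1 at 0.10 in Akita against WT. It also gave Tet1 at -0.01, Dnmt1 at 0.16 and Uhrf1 at 0.13 in the double mutant against WT and Tet1 at -0.02, Tet3 at 0.13, Dnmt1 at 0.42, Idh2 at -0.02 and Uhrf1 at 0.46 in the double mutant against Tet2+/-. It also gave Uhrf1 at 0.02 in the double mutant against Akita and Tet1 at -0.45, Dnmt1 at 0.16, Dnmt3b at -0.20, Idh2 at -0.01 and Uhrf1 at 0.36 in the interaction. Adding the reads of close copies gave Tdg at 0.09 in Tet2+/- against WT and Tdg at -0.18 in the double mutant against Tet2+/-. It also gave Tdg at -0.16 in the interaction. Leaving out single libraries changed the sign of 29 differences. Tet2+/- against WT then ranged for Idh2 from -0.04 to 0.10, Idh1 from -0.45 to 0.27, Uhrf1 from -0.48 to 0.37, Tet1 from -0.47 to 0.13, Dnmt1 from -0.34 to 0.26 and Dnmt3b from -0.25 to 0.30. Akita against WT then ranged for Tet1 from -0.16 to 0.43, Tdg from -0.09 to 0.03, Dnmt3b from -0.33 to 0.22, Uhrf1 from -0.11 to 0.10 and Idh2 from -0.24 to 0.06. The double mutant against WT then ranged for Tet1 from -0.42 to 0.42, Tet2 from -0.81 to 0.03, Dnmt1 from -0.14 to 0.08 and Dnmt3b from -0.11 to 0.68. The double mutant against Tet2+/- then ranged for Tet3 from -0.20 to 0.23, Tdg from -0.10 to 0.20, Dnmt3a from -0.11 to 0.19, Dnmt1 from -0.31 to 0.29, Uhrf1 from -0.51 to 0.34, Tet1 from -0.15 to 0.48 and Dnmt3b from -0.06 to 0.57. The double mutant against Akita then ranged for Tet1 from -0.45 to 0.18 and Uhrf1 from -0.20 to 0.02. The interaction then ranged for Dnmt3a from -0.19 to 0.11, Tet1 from -0.18 to 0.46, Tdg from -0.09 to 0.22, Dnmt1 from -0.48 to 0.12 and Uhrf1 from -0.47 to 0.38.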
